A study of Mus musculus with 6 samples.

Results

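The S100 genes encode small calcium-binding proteins, and 10 of them were followed here in inguinal white adipose tissue (iWAT), a subcutaneous fat depot, of mice that carried an *Hlx* transgene: *S100b*, *S100a1*, *S100a4*, *S100a6*, *S100a8*, *S100a9*, *S100a10*, *S100a11*, *S100a13* and *S100a16*. They are 10 of the 19445 gene loci with a value, and all 10 were among the 11692 loci with a mean over 1 FPKM in at least 1 genotype. FPKM is a count of reads divided by the length of the transcript and by the size of the library. The genes were chosen by name with the values of these same mice known, so their differences between genotypes are given as a description, with no p-value and no weight on whether one passes a threshold. RNA-Seq was done on 3 transgenic mice (TG) and 3 wild-type littermates (WT), all 12 weeks old, with 1 library per mouse. In TG, the *Hlx* cDNA was driven by the *aP2* (*Fabp4*) promoter, which is active in adipocytes. The DNA was injected into C57BL/6 × SJL hybrid embryos, and the lines were then backcrossed to C57BL/6 for 3 or more generations. The number of founder lines sequenced was not stated, and no transgene was described for WT.

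The total of all FPKM was 466059 to 542096 per library. The relative depth, read from the steps between values under 0.3 FPKM, was 0.690 to 1.15 in TG and 0.939 to 1.42 in WT, with WT replicate 3 set to 1. Read counts were not used, so absolute depth is unknown. *Hlx* was 109.7, 79.6 and 99.5 FPKM in TG and 6.88, 7.35 and 8.14 FPKM in WT, with TG above WT as labelled. The labels give all 6 mice as male, but *Xist*, the RNA that coats the inactive X chromosome of females, was 20.2 to 33.6 FPKM in all 6 libraries, and all 28 loci on the Y chromosome were at 0 in every library. The sex label therefore does not match the values in either genotype. As markers of the labelled tissue, the 9 white adipocyte genes summed to 32700 to 38630 FPKM in TG and 45490 to 61460 FPKM in WT. *Fabp4* made up a large part of that sum and went the other way, at 24560 to 29360 FPKM in TG and 19300 to 23540 FPKM in WT. The paper names *aP2* (*Fabp4*) and *Adipoq*, both on this list, as common fat genes, so the sum does not mark white fat alone.

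S100 proteins form dimers, bind calcium through EF-hand motifs, and then expose a surface that holds partner proteins inside the cell. Several are also secreted and act on receptors such as RAGE (*Ager*) and Toll-like receptor 4 (*Tlr4*). S100b is best known from astrocytes and Schwann cells, but thermogenic adipocytes also secrete it, and this promotes the sympathetic innervation of fat. S100a8 and S100a9 pair as calprotectin, which is abundant in neutrophils and monocytes.

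The promoter windows of 4 of the members, *S100b*, *S100a1*, *S100a8* and *S100a9*, are shown. They were taken from RefSeq on GRCm38.p6, the same assembly as mm10. Each runs from 250 bases before to 50 bases after the annotated transcript start, 5′ to 3′ on the strand of the gene. A window was found for 9 of the 10 members, all but *S100a10*. For *S100b*, *S100a8* and *S100a9*, capitals mark a match to any of 5 motifs searched on both strands: TATAAA, the TATA box; TAATTA, a homeodomain core; TGACGTCA, the cyclic AMP response element; AGGTCA, the nuclear receptor half-site; and TTGCGCAA, a C/EBP site. TAATTA, TGACGTCA and TTGCGCAA read the same on both strands, and none of the 5 contains another. For *S100a1*, capitals mark instead the 204 bases that its window shares with that of *S100a13*, which starts in the opposite direction.
S100b, chr10:76253586-76253885, plus strand: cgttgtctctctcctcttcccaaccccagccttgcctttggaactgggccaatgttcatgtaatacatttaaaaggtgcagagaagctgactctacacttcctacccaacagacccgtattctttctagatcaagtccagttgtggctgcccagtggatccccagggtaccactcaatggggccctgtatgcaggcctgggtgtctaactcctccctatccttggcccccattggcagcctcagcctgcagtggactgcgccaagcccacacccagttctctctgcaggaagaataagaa
S100a1, chr3:90514281-90514580, minus strand: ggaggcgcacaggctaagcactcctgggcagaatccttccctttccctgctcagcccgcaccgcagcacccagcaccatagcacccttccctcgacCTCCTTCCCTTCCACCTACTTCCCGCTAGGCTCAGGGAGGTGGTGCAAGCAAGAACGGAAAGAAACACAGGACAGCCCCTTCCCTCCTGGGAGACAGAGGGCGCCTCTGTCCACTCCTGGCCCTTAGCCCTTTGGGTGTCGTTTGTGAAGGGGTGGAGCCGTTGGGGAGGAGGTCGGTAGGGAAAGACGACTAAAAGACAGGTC
S100a8, chr3:90668821-90669120, plus strand: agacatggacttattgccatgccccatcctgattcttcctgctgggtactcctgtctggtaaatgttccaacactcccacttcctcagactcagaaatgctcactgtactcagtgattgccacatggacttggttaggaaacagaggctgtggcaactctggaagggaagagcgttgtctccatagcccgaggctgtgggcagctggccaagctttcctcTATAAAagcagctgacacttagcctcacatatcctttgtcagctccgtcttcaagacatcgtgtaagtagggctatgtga
S100a9, chr3:90695672-90695971, minus strand: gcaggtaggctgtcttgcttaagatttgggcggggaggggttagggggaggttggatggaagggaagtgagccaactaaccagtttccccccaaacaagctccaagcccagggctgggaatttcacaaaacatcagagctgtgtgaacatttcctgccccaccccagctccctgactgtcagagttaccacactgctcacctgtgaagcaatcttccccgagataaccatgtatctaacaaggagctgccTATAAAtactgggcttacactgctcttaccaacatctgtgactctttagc

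None of the 5 motifs was found in the windows of *S100b*, *S100a1*, *S100a13* and *S100a6*. TATAAA lay at position -30 from the start in *S100a8*, at -31 in *S100a4* and at position 1 in *S100a9*, where position 1 is the annotated start. AGGTCA lay at -24 in *S100a4* and, on the opposite strand, at -243 in *S100a11* and -221 in *S100a16*. Of 32851 RefSeq promoter windows of the same length, 13.6% held TATAAA, 16.3% AGGTCA, 5.29% TAATTA, 1.79% TGACGTCA and 0.183% TTGCGCAA. The *S100b* window was 53.7% G and C, the *S100a1* window 61%, and the median of all windows 52.7%. A match is a stretch of letters and not a measured binding site.

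*S100b* stood apart from the rest of the family. It was 93.4, 37.4 and 55.5 FPKM in TG and 3.49, 3.13 and 2.31 FPKM in WT. Every TG mouse lay far above every WT mouse, and TG replicate 1 was the highest. The means were 62.1 ± 28.6 FPKM in TG and 2.98 ± 0.603 FPKM in WT (SD, n = 3 each), a ratio of 20.9. In log2(FPKM + 1), where the added 1 shrinks the change of weakly expressed genes, the difference was 3.90 (SE 0.31), and it ranged from 3.56 to 4.21 when any 1 mouse was left out. In bulk tissue, more cells that express a gene and more RNA of it per cell cannot be told apart.

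Within TG, *S100b* also varied more than most genes. Its highest TG value was 2.50 times the lowest, and the SD of its log2(FPKM + 1) over the TG mice was larger than that of 98.1% of the tested loci. In WT the same comparison gave a ratio of 1.51 and 81.9% of loci. By mean level, *S100b* moved from place 9664 of the 11692 loci in WT to place 1266 in TG.

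**Figure D1:**
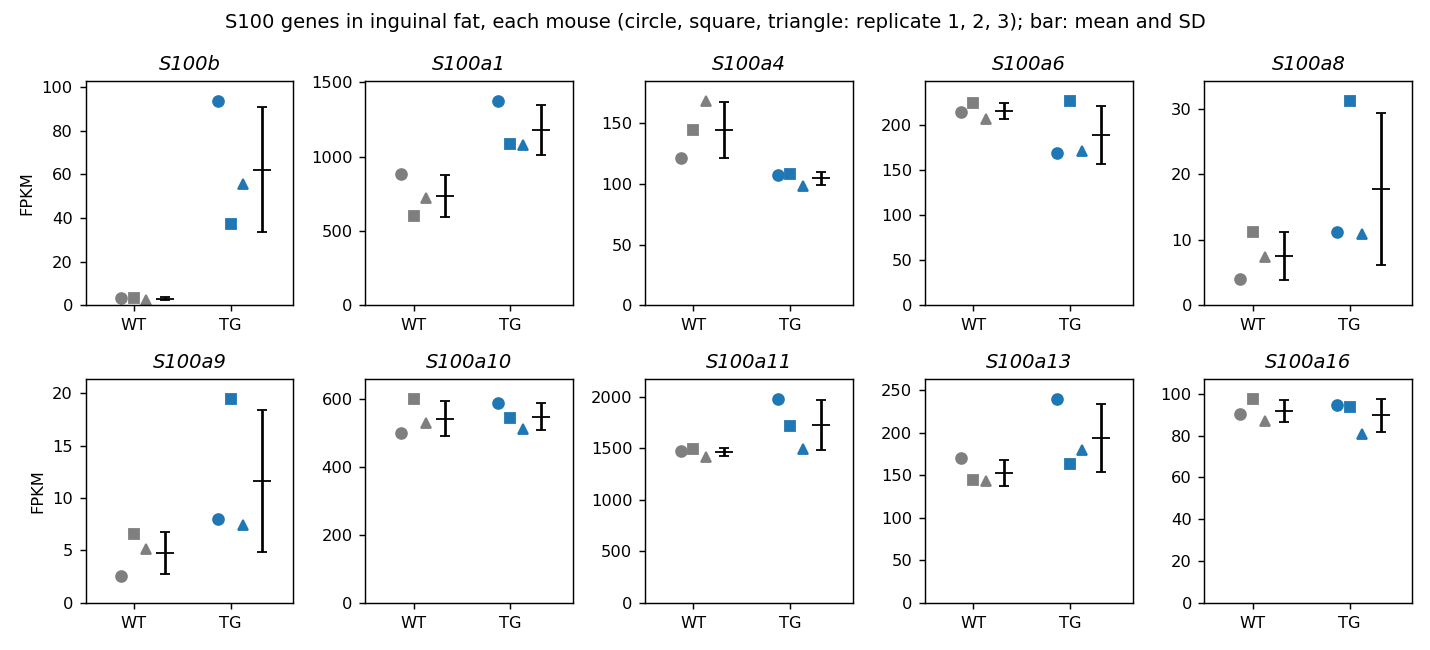
FPKM of each of the 10 S100 genes in each WT (grey) and TG (blue) mouse, on linear axes that start at 0, with circles, squares and triangles for replicates 1, 2 and 3 and bars for the mean and SD. The TG mice lie above all WT mice for S100b, S100a1 and S100a9 and below them for S100a4, and the groups overlap for the other 6 genes.

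*S100b* lies on chromosome 10 of mm10 from 76253853 to 76261159, on the plus strand (GENCODE). The interval listed for it in the deposited table was longer, 24.7 kb in place of 7.31 kb, and began 15.9 kb before the annotated start. The annotated 3′ end of *Dip2a*, a gene on the minus strand, overlaps *S100b* by 1731 bases in GENCODE. The library kit is not stated to keep strand, so reads there cannot be assigned to a strand. The intervals listed with the FPKM values did not overlap, since that of *S100b* ended at 76262659 and that of *Dip2a* began at 76262807. The row of *Dip2a* was 9.39, 7.38 and 7.93 FPKM in TG and 5.52, 5.60 and 5.18 FPKM in WT (log2 difference 0.52, SE 0.10, limma adjusted p = 0.0151). That call was lost without WT replicate 3, where the difference was 0.49. The mean of *Dip2a*, 8.23 FPKM in TG and 5.43 FPKM in WT, lay below that of *S100b* in TG and above it in WT. The row of *Mir678* and *Prmt2*, on the other side, was 10.2 to 13.5 FPKM in TG and 9.70 to 10.6 FPKM in WT, and *Slc5a4a* was listed at 0 in all 6 mice.

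The 5 loci whose 6 values lay nearest to those of *S100b*, by the root mean square difference of log2(FPKM + 1) centred on each gene's mean, were *Cox7a1* (0.267), *Cidea* (0.288), *Phospho1* (0.290), *Clic5* (0.315) and *Adck3* (0.350). *Cox7a1* encodes a subunit of cytochrome c oxidase, *Cidea* a lipid droplet protein of brown fat, *Phospho1* a phosphatase of phosphocholine and phosphoethanolamine, and *Adck3* (now *Coq8a*) a kinase-like protein of coenzyme Q synthesis. *Cox7a1* was 1532, 973 and 1124 FPKM in TG and 81.8, 58.6 and 71.5 FPKM in WT. *Clic5* was 53.5, 32.7 and 43.6 FPKM in TG and 3.38, 2.95 and 2.86 FPKM in WT. As for *S100b*, TG replicate 1 was the highest and TG replicate 2 the lowest in each of the 5. The ratios of the means were 11.8 to 18.9, below that of *S100b*. Nearness over 6 mice of 2 genotypes was led by the difference between genotypes, and the loci were selected for it.

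**Figure D2:**
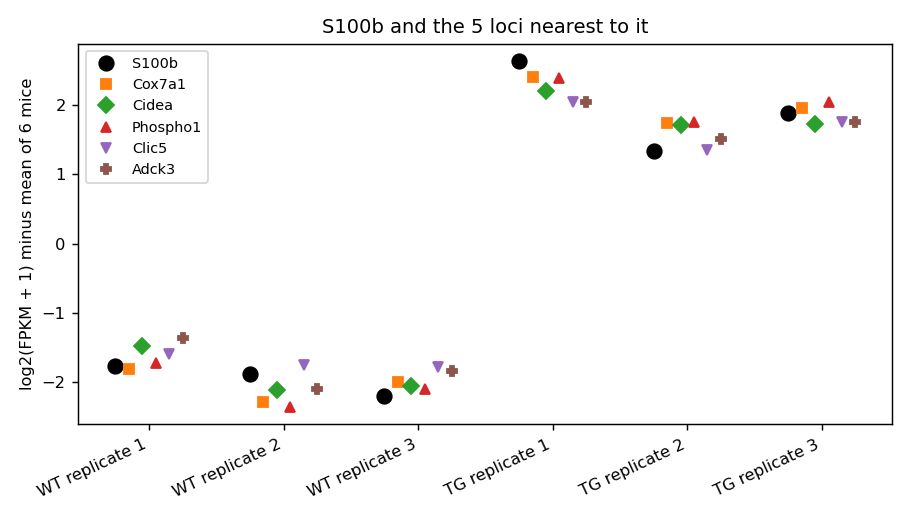
The log2(FPKM + 1) of S100b (black) and of the 5 nearest loci in each of the 6 mice, after subtracting each gene's mean over the 6. All lie below the mean in WT and above it in TG, with TG replicate 1 the highest for each gene.

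Markers of the cells that could hold S100b RNA were summed for each mouse. The 9 brown adipocyte genes, which include *Ucp1*, summed to 6185 to 8003 FPKM in TG and 622 to 1057 FPKM in WT, a ratio of 8.64 (exact permutation p = 0.1, two-sided, the smallest that 3 against 3 allows). Of these 9 genes, 8 were called higher (limma, adjusted p under 0.05) and none lower, also at an unadjusted p under 0.05. Of all 11692 tested loci, 11.6% were called higher and 7.03% lower. At an unadjusted p under 0.05 (limma), 2267 of the loci were higher and 1963 lower. These numbers are the background for each count of a list given below. Of the 14 Schwann cell and glia genes, 12 were listed, and their sum was 74.2 to 81.3 FPKM in TG and 59.6 to 81.1 FPKM in WT, a ratio of 1.14 (exact permutation p = 0.3). A single gene, the sodium channel gene *Scn7a*, made up 22.8% to 63.0% of that sum. Without it, a choice made after seeing the values, the sum was 42.8 to 62.8 FPKM in TG and 30.0 to 39.3 FPKM in WT, without overlap and with a ratio of 1.51. The part of either cell type in the level of *S100b* was not tested.

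Single Schwann cell genes differed in direction. *Sox10*, the transcription factor of the lineage, was 2.81, 5.16 and 9.61 FPKM in TG and 9.94, 6.38 and 4.39 FPKM in WT, with a log2 difference of -0.27 (SE 0.40, limma adjusted p = 0.659) that turned to 0.09 without TG replicate 1. Of the 8 genes tested, 2 were higher and none lower, beside 11.6% and 7.03% of all loci. The 2 were the myelin protein gene *Mbp*, by 0.54 (limma adjusted p = 0.0262), and the neurotrophin receptor gene *Ngfr*, by 0.84 (limma adjusted p = 0.0329). Each call was lost without 1 of several mice: *Mbp* kept its call only without WT replicate 2 (0.65), and *Ngfr* lost its call without TG replicate 2 (0.68) or 3 (0.85) or WT replicate 1 (0.79) or 2 (0.73).

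The *Clstn3* locus encodes calsyntenin 3, and a form of it made in thermogenic adipocytes promotes the secretion of S100b. *Clstn3* was 87.4, 89.0 and 81.7 FPKM in TG and 45.7, 30.8 and 34.3 FPKM in WT. The groups did not overlap, the log2 difference was 1.22 (SE 0.14, limma adjusted p = 0.00252), and it was called with each mouse left out. The row does not part the forms of the gene. Of 24 innervation genes, 10 passed the expression filter, and 3 were higher and 2 lower, against 11.6% of all tested loci called higher and 7.03% called lower. *Ngfr* is on this list as well as among the Schwann cell genes. The others that rose were *Ngfr* and *Nrg4*, a secreted neuregulin of brown fat (75.6 ± 3.32 against 51.3 ± 6.57 FPKM, 0.56, limma adjusted p = 0.0151). *Nrg4* lost its call without TG replicate 3 (0.53).

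The 2 that fell were *Gfra2*, a receptor for neurturin, by 0.66 (limma adjusted p = 0.0321) and *Stmn2*, a neuronal microtubule regulator, by 0.55 (limma adjusted p = 0.0237). *Gfra2* kept its call only without WT replicate 2 (-0.79), and *Stmn2* only without TG replicate 1 (-0.62) or 2 (-0.59), out of 6 mice left out in turn. *Th* and *Dbh*, enzymes of noradrenaline synthesis, were listed at 0 in all 6 mice, as was the widely expressed *Sdf4*, so a 0 in this table may not be an absent transcript. Without replicate 2 of either genotype, 1 innervation gene was higher and 0 were lower.

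S100a1 is the member typical of heart and skeletal muscle, where it acts on calcium release and on the calcium pump *Atp2a2*. It was the second most abundant member in both genotypes, at 1371, 1086 and 1077 FPKM in TG and 884, 603 and 721 FPKM in WT. The genotypes did not overlap, with means of 1178 ± 167 and 736 ± 141 FPKM (SD, n = 3 each), a ratio of 1.60 and a log2 difference of 0.69 (SE 0.18). With any 1 mouse left out the difference ranged from 0.55, without WT replicate 2, to 0.83, without WT replicate 1.

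Skeletal muscle RNA differed between mice as well, so its values are given beside *S100a1*. The 10 listed muscle markers summed to 114, 788 and 158 FPKM in TG and 11.2, 174 and 49.99 FPKM in WT (exact permutation p = 0.3). None was called by limma, with 2 higher and 0 lower at an unadjusted p under 0.05. The part of muscle RNA in the level of *S100a1* was not tested. *Atp2a2* was 42.5, 45.9 and 51.7 FPKM in TG and 38.6, 34.4 and 35.6 FPKM in WT (0.35, SE 0.10, limma adjusted p = 0.0452). That call was lost at least without TG replicate 3, WT replicate 2 or WT replicate 3. *Ryr1*, the calcium release channel of skeletal muscle, was 2.17 ± 1.09 FPKM in TG and 2.41 ± 0.453 FPKM in WT and was not called (-0.15, SE 0.24).

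S100a13 takes part in the release of the growth factor Fgf1, which has no signal peptide. *S100a13* was 239, 163 and 179 FPKM in TG and 170, 144 and 143.5 FPKM in WT. The genotypes overlapped, because TG replicate 2 lay below WT replicate 1, and the log2 difference was 0.33 (SE 0.16). *Fgf1* was 21.7, 12.0 and 14.1 FPKM in TG and 4.30, 7.34 and 5.55 FPKM in WT (1.31, SE 0.24, limma adjusted p = 0.0122), and it was called with each mouse left out.

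*S100a1* and *S100a13* lie head to head on chromosome 3 of mm10, *S100a1* on the minus strand from 90511034 to 90514392 and *S100a13* on the plus strand from 90514435 to 90524581. Their GENCODE starts are 43 bases apart, and their RefSeq starts, in the windows above, 105 bases apart. In the deposited table both were listed at one interval of 13.97 kb, so how the reads were divided between them is uncertain. The ratio of *S100a1* to *S100a13* was 5.73 to 6.67 in TG and 4.18 to 5.20 in WT. As listed, the TG ratios lay above all WT ratios, but they rest on that division.

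S100a8 and S100a9 had among the lowest levels of the 10 and the widest spread between mice of 1 genotype. *S100a8* was 11.1, 31.1 and 10.9 FPKM in TG and 3.99, 11.2 and 7.32 FPKM in WT. *S100a9* was 7.99, 19.4 and 7.46 FPKM in TG and 2.59, 6.53 and 5.16 FPKM in WT. For both genes replicate 2 was the highest mouse of its genotype. TG exceeded WT without overlap for *S100a9*, whereas for *S100a8* WT replicate 2 lay above TG replicates 1 and 3.

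The mean ratios of TG to WT were 2.36 for *S100a8* and 2.44 for *S100a9*, with log2 differences of 1.06 (SE 0.46) and 1.07 (SE 0.40). TG replicate 2 weighed most: without it the differences were 0.59 and 0.66. Without replicate 2 of either genotype they were 0.90 and 0.89. The SD of log2(FPKM + 1) over TG mice was larger than that of 98.9% of tested loci for *S100a8* and 98.5% for *S100a9*. The ratio of *S100a8* to *S100a9* was 1.39 to 1.60 in TG and 1.42 to 1.72 in WT, so the genes of the calprotectin pair kept a like proportion in all 6 mice.

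Markers of cells that carry calprotectin are given beside it. The 13 listed neutrophil genes summed to 61.5, 87.2 and 93.0 FPKM in TG and 109.8, 80.6 and 79.3 FPKM in WT (ratio 0.896, exact permutation p = 0.6). *Lcn2*, which adipocytes also express, made up 40.3% to 66.0% of that sum, and the other 12 genes summed to 33.2 to 46.2 FPKM in TG and 33.6 to 47.4 FPKM in WT (ratio 0.952). Of the 10 tested, 1 was higher and none lower, beside 11.6% and 7.03% of all loci. The gene called was the granule peptide gene *Camp* (2.87 ± 0.213 against 0.895 ± 0.689 FPKM, 1.11, limma adjusted p = 0.0377). At an unadjusted p under 0.05, 2 were higher and 3 lower (limma). *Camp* kept its call only without WT replicate 1 (0.76) or 3 (1.30). *Csf3r*, the receptor for granulocyte colony-stimulating factor, was 0.566, 0.993 and 0.838 FPKM in TG and 1.19, 1.05 and 1.47 FPKM in WT (-0.32, limma adjusted p = 0.166).

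Some neutrophil genes, named after their values were seen, were like *S100a8* and *S100a9* highest in replicate 2 of both genotypes. The granule gene *Ngp* was 0.550, 4.99 and 1.93 FPKM in TG and 0, 1.11 and 1.06 FPKM in WT. *Retnlg* was 1.45, 2.90 and 2.05 FPKM in TG and 0.200, 1.74 and 0.378 FPKM in WT. Neither was called. Of the other listed neutrophil genes only *Mmp8*, which was not tested, shared this order. *Cxcr2* was lowest in replicate 2 of both genotypes (0.736, 0.484 and 0.893 FPKM in TG, 1.35, 1.26 and 4.01 FPKM in WT). *Csf3r*, *Mmp9*, *Il1r2* and *Elane* were highest in TG replicate 2 but lowest in WT replicate 2. The 11 macrophage markers summed to 690 to 1018 FPKM in TG and 1224 to 1670 FPKM in WT, a ratio of 0.566 (exact permutation p = 0.1). Of the 11, 5 were called lower, beside 7.03% of all loci, and none higher (limma). At an unadjusted p under 0.05, 10 were lower and 0 higher, beside 1963 and 2267 of the 11692 loci. The part of neutrophils, macrophages or muscle RNA in the calprotectin values was not tested.

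**Figure D3:**
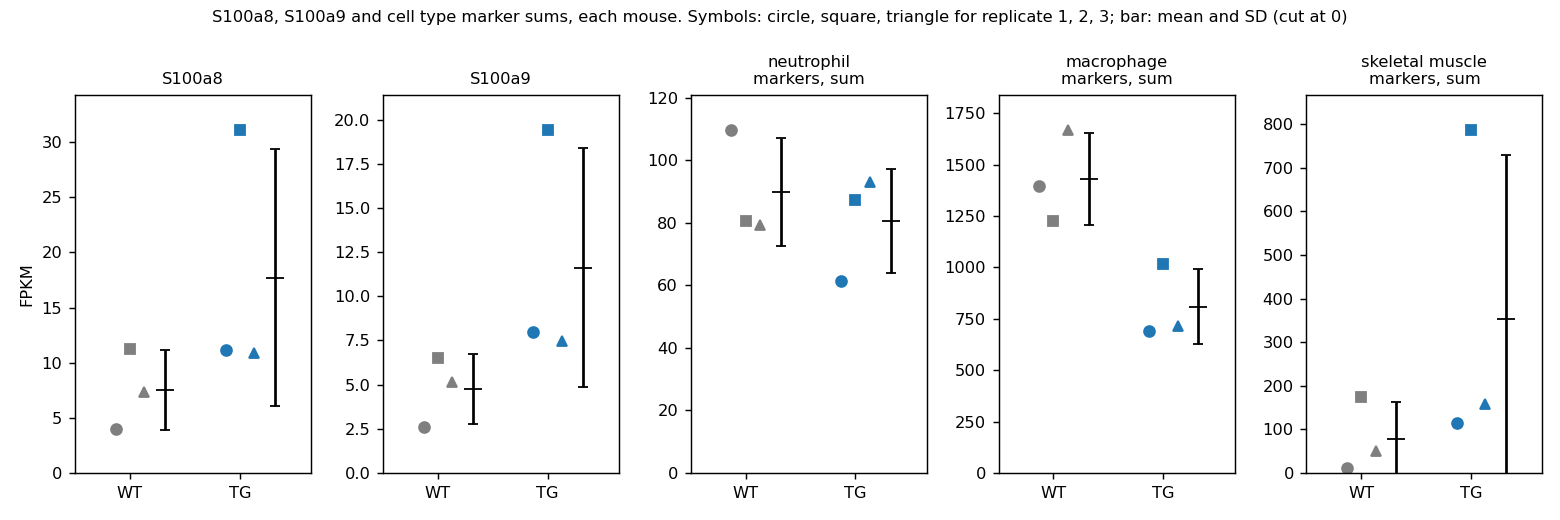
FPKM of S100a8 and S100a9 and the summed FPKM of neutrophil, macrophage and skeletal muscle markers in each WT (grey) and TG (blue) mouse, with circles, squares and triangles for replicates 1, 2 and 3 and bars for the mean and SD, cut at 0. Replicate 2 (square) is the highest of its genotype for both genes and for muscle markers, and the macrophage sums of TG lie below all those of WT.

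S100a4, also called metastasin or fibroblast-specific protein, binds nonmuscle myosin and is made by fibroblasts and macrophages. It was the member with the largest difference towards WT, at 107, 108 and 98.7 FPKM in TG and 122, 145 and 168 FPKM in WT. All TG mice lay below all WT mice, with a ratio of 0.723 and a log2 difference of -0.45 (SE 0.13). With any 1 mouse left out it ranged from -0.57, without WT replicate 1, to -0.34, without WT replicate 3. The 10 fibroblast and progenitor markers summed to 1497 to 2129 FPKM in TG and 1805 to 2453 FPKM in WT (exact permutation p = 0.4), with none called and 2 lower and 0 higher at an unadjusted p under 0.05 (limma). The macrophage sums given above were lower in TG, and their part in the level of *S100a4* was not tested.

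Of its myosin partners, *Myh9* was 75.6 ± 17.7 FPKM in TG and 95.8 ± 9.45 FPKM in WT (-0.36, limma adjusted p = 0.199). *Myh10* was 5.61, 6.86 and 7.08 FPKM in TG and 16.4, 11.9 and 15.7 FPKM in WT, a fall of -1.05 (SE 0.14, limma adjusted p = 0.0038). *Myh14* was 6.53 ± 0.857 against 4.08 ± 0.726 FPKM and rose by 0.57 (limma adjusted p = 0.028). The call of *Myh14* was lost at least without TG replicate 3, WT replicate 2 or WT replicate 3. Without TG replicate 1, and likewise without WT replicate 1, the call of *Myh14*, of *Atp2a2* or of both was lost. By their means the nonmuscle myosin genes thus differed in direction, with the rise of *Myh14* depending on the mice kept.

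S100a6, or calcyclin, binds the ubiquitin ligase adaptor Cacybp and is common in fibroblasts and epithelia. *S100a6* was 169, 226 and 171 FPKM in TG and 215, 225 and 207 FPKM in WT. TG replicate 2 lay at the WT level and the other TG mice below it, so the genotypes overlapped (-0.20, SE 0.13). Its listed interval of 39.0 kb also holds a pseudogene, *Gm19739*. *Cacybp* was 45.0 ± 1.91 FPKM in TG and 35.4 ± 2.45 FPKM in WT (0.34, limma adjusted p = 0.0319), a call kept only without WT replicate 1 (0.39) when mice were left out in turn.

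For 3 further members, which bind annexins or are widely expressed, the genotypes overlapped. *S100a10*, which pairs with annexin A2 and has lost calcium binding, was 588, 543 and 510 FPKM in TG and 498, 598 and 527 FPKM in WT (0.02, SE 0.12), a difference whose sign changed with the settings. *S100a11*, a partner of annexin A1, was 1975, 1710 and 1493 FPKM in TG and 1477, 1496 and 1414 FPKM in WT. Its genotypes overlapped only because TG replicate 3 lay just below WT replicate 2, and the difference was 0.23 (SE 0.15), or -0.05 after quantile normalization. *S100a16* was 94.8, 93.6 and 80.7 FPKM in TG and 90.5, 97.4 and 87.0 FPKM in WT (-0.03, SE 0.10).

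Genes of annexins and of a scaffold are given beside them. *Anxa2* was 371 ± 46.7 FPKM in TG and 355 ± 60.9 FPKM in WT (0.07, SE 0.16, limma adjusted p = 0.785), with a sign that also changed with the settings. *Anxa1* was 115, 103 and 90.4 FPKM in TG and 132, 179 and 140 FPKM in WT and fell by 0.54 (limma adjusted p = 0.0433). That call was lost with any 1 of the 6 mice left out, where the difference ranged from -0.63 to -0.41. *Ahnak*, a scaffold held by the S100a10 and annexin A2 complex, was 77.8 ± 14.9 against 57.7 ± 11.1 FPKM (0.43, limma adjusted p = 0.139).

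By the threshold used for the other genes, 2 of the 10 members, *S100b* and *S100a1*, would count as higher and 0 as lower, where 11.6% of the 11692 loci were called higher (1352) and 7.03% lower (822) by limma at an adjusted p under 0.05. At an unadjusted p under 0.05 the counts were 3 higher and 1 lower, where 2267 of the 11692 loci were higher and 1963 lower. TG lay above WT without overlap for 3 members, against 22.8% of all loci, and below it for 1 member, against 20.1%. The median log2 difference was 0.28 over the 10 members and 0.23 without *S100b*, beside -0.01 over all loci. The members were chosen on these values, so these counts are no test of them and nothing is read from them.

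**Figure D4:**
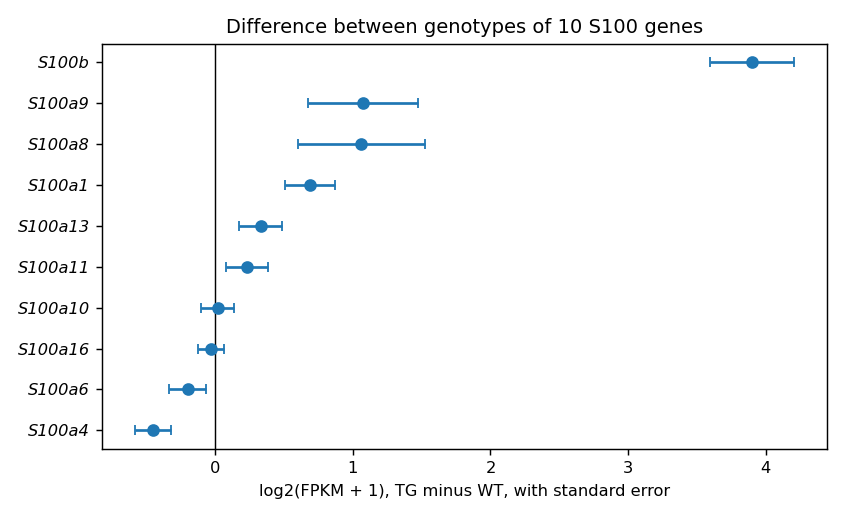
Difference of log2(FPKM + 1) between 3 TG and 3 WT mice for each S100 gene, with standard errors from limma. Points show the difference and bars its standard error. S100b lies at 3.90, and the other 9 lie between -0.45 and 1.07.

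In both genotypes 3 genes held most of the S100 RNA. *S100a1*, *S100a10* and *S100a11* gave 83.1% to 84.5% of the summed FPKM of the 10 members in TG and 81.0% to 82.5% in WT. The sum itself was 4657, 4019 and 3683 FPKM in TG and 3465, 3329 and 3282 FPKM in WT, without overlap. As a share of all FPKM of the library it was 0.859%, 0.781% and 0.731% in TG and 0.668%, 0.703% and 0.704% in WT. *S100b* made up 0.932% to 2.01% of the members' sum in TG and 0.0705% to 0.101% in WT.

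The order of levels in WT was *S100a11* (1462 FPKM), *S100a1* (736), *S100a10* (541), *S100a6* (215), *S100a13* (153), *S100a4* (145), *S100a16* (91.6), *S100a8* (7.51), *S100a9* (4.76) and *S100b* (2.98). Neighbours in this order overlapped between mice for *S100a13* and *S100a4*, for *S100a8* and *S100a9*, and for *S100a9* and *S100b*. In TG, *S100a13* (194 FPKM) stood above *S100a6* (189), with overlap, and *S100b* (62.1) stood above *S100a8* (17.7) and *S100a9* (11.6) and overlapped with *S100a16* (89.7). *S100b* thus went from the lowest of the 10 to place 8.

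Apart from *S100b*, on chromosome 10, all members lie on chromosome 3. *S100a1*, *S100a13*, *S100a16*, *S100a4*, *S100a6*, *S100a8* and *S100a9* lie between 90511034 and 90695721 of mm10, and *S100a11* and *S100a10* lie apart from them, between 93520488 and 93564643. The gene model of *S100a4* overlaps that of *Gm42674*, annotated as protein coding on the same strand. Other genes of the family were hardly detected. Of 12 listed S100 and S100 fused-type genes, 10 of them on chromosome 3, *S100g* on the X chromosome and *S100z* on chromosome 13, 1 passed the filter, *S100a14*, at 1.16 ± 0.971 FPKM in TG and 0.622 ± 0.245 FPKM in WT (0.33, SE 0.31, limma adjusted p = 0.483). None was called, also at an unadjusted p under 0.05. *S100a3*, *S100a5*, *S100a7a*, *S100g*, *S100z*, *Tchh*, *Flg2* and *Rptn* were under 1 FPKM in every mouse, and *Tchhl1*, *Hrnr* and *Crnn* were listed at 0 in all. *S100a2*, a further gene of the chromosome 3 cluster, was 0.503 FPKM in TG replicate 1 and listed at 0 in the other mice.

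On the side of the receptors, 4 of 12 genes fell, beside 7.03% of all loci, and 0 rose (limma). At an unadjusted p under 0.05, 1 was higher and 4 were lower, beside 2267 and 1963 of the 11692 loci. The median log2 difference was -0.26, against -0.01 over all loci. *Alcam*, an adhesion molecule related to RAGE, was 2.04, 2.51 and 3.27 FPKM in TG and 10.4, 9.29 and 8.95 FPKM in WT (-1.56, SE 0.14, limma adjusted p = 0.000914). *Mcam*, an adhesion molecule that binds S100a8 and S100a9, was 54.4, 58.3 and 48.5 FPKM in TG and 91.5, 95.7 and 88.0 FPKM in WT (-0.76, limma adjusted p = 0.00275).

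*Cd33*, a myeloid lectin that binds S100a9 in humans, fell by 0.73 (limma adjusted p = 0.00974), and the growth factor receptor gene *Fgfr1* fell by 0.53 (limma adjusted p = 0.0225). *Fgfr1* lost its call without TG replicate 3 (-0.43), WT replicate 1 (-0.46) or WT replicate 3 (-0.55), and without replicate 2 of either genotype 2 of the 12 genes were lower. The classical receptors were not called. *Ager* was 1.01, 0.986 and 0.852 FPKM in TG and 1.01, 1.67 and 1.81 FPKM in WT (-0.34, limma adjusted p = 0.164). *Tlr4* was 4.85, 4.37 and 4.14 FPKM in TG and 4.33, 4.30 and 5.14 FPKM in WT (-0.03, limma adjusted p = 0.828), with a sign that changed without TG or WT replicate 3. *Bsg*, a further receptor of S100a9, was 324 ± 18.4 against 258 ± 28.0 FPKM (0.33, limma adjusted p = 0.0843).

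Among 38 genes of intracellular partners and targets, 33 were tested, 7 rose and 2 fell, beside 11.6% and 7.03% of all loci, and the median was 0.04. The largest rises were those of *Mapt*, the microtubule protein tau, and *Kcnk3*, a potassium channel that S100a10 helps to reach the membrane. *Mapt* was 8.76, 6.54 and 12.1 FPKM in TG and 0.896, 0.835 and 0.821 FPKM in WT (2.42, SE 0.19, limma adjusted p = 0.000715). *Kcnk3* was 105, 88.9 and 95.8 FPKM in TG and 27.4, 30.4 and 29.5 FPKM in WT (1.70, SE 0.09, limma adjusted p = 0.000231). *Tpm1*, a tropomyosin, rose from 61.7 ± 8.93 to 121 ± 25.3 FPKM (0.95, limma adjusted p = 0.0106). These 3 genes and *Fgf1* kept their calls with each mouse left out, and with replicate 2 of either genotype left out 4 partners were higher and 1 was lower.

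**Figure D5:**
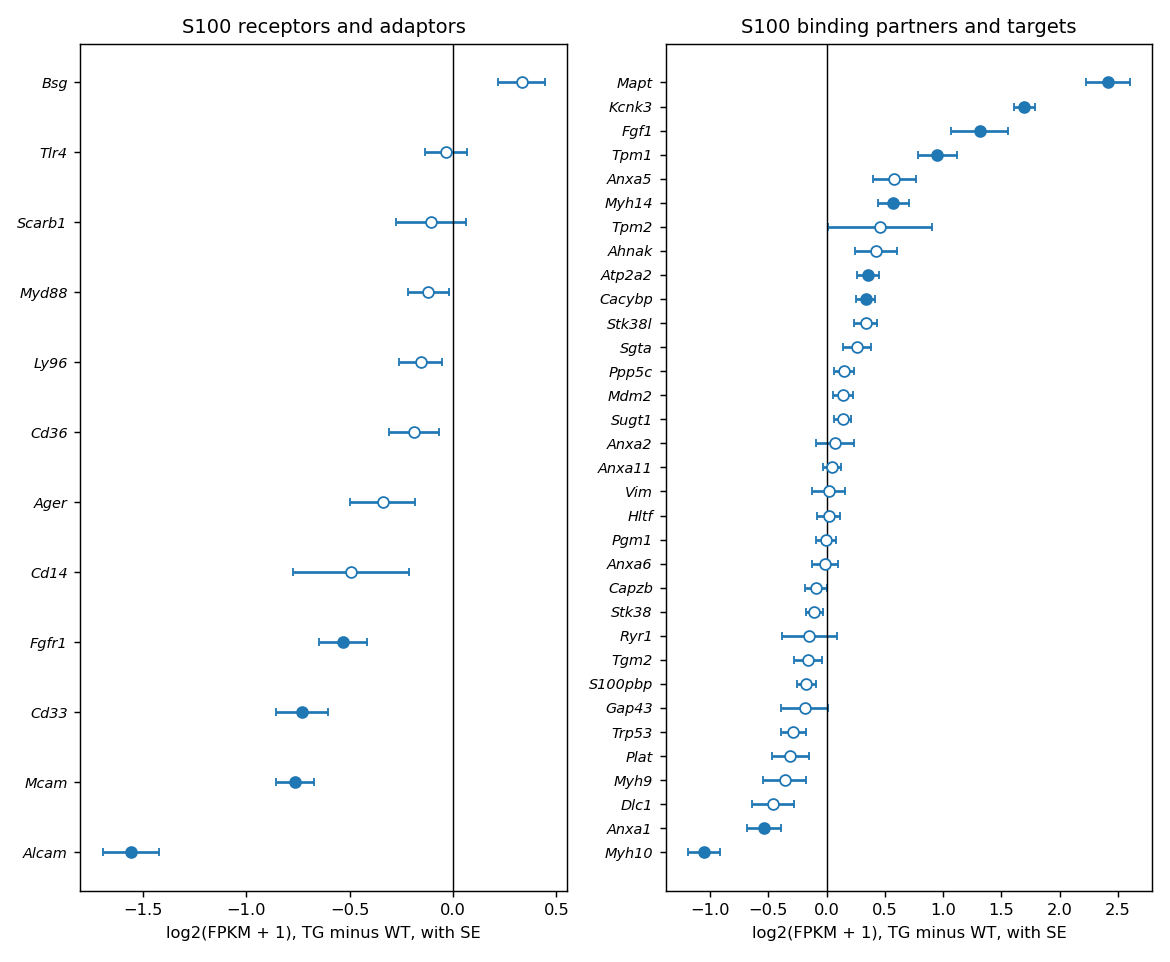
Difference of log2(FPKM + 1) between TG and WT with standard errors for 12 genes of S100 receptors and adaptors (left) and 33 genes of S100 binding partners and targets (right). Filled points were called at an adjusted p under 0.05 (limma): 4 receptor genes lower, 7 partner genes higher and 2 lower.

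Other EF-hand proteins bind calcium by the same motif. Of 33 genes 24 were tested, and 1 was higher and 1 lower, beside 11.6% and 7.03% of all loci. At an unadjusted p under 0.05, 3 were higher and 4 lower, beside 2267 and 1963 of the 11692 loci. TG lay above WT without overlap for 2 of the 24 and below it for 6, beside 22.8% and 20.1% of all loci, and the median difference was -0.01, as over all loci. *Capns1*, the small subunit of the calpains, was 562 ± 48.0 against 412 ± 30.4 FPKM (0.45, limma adjusted p = 0.0402), a call lost with any 1 mouse left out (0.38 to 0.51). *Gca*, or grancalcin, a myeloid member, was 1.39, 1.55 and 1.99 FPKM in TG and 3.50, 3.45 and 3.67 FPKM in WT (-0.79, limma adjusted p = 0.00529). *Pvalb*, the parvalbumin of fast muscle, was 12.8, 80.9 and 14.8 FPKM in TG and 0.0573, 17.3 and 3.24 FPKM in WT. It is on this list as well as among the muscle markers, so it is a part of the muscle sums given above.

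The remaining marker lists, which bear on the cells in the libraries, are given by their sums and calls. The calls are to be read beside the 11.6% of all loci called higher and the 7.03% called lower. The unadjusted counts are to be read beside 2267 higher and 1963 lower of the 11692 loci. Endothelial markers summed to 197 to 214 FPKM in TG and 194 to 202 FPKM in WT, with 2 higher and 1 lower of 8 (4 higher and 1 lower at an unadjusted p under 0.05). Smooth muscle and pericyte markers summed to 146 to 256 and 188 to 267 FPKM, with none called of 6 (0 at an unadjusted p under 0.05). Lymphocyte markers summed to 187 to 286 and 276 to 395 FPKM, with 1 of 8 lower and 0 higher (4 lower and 0 higher at an unadjusted p under 0.05). Epithelial markers summed to 135 to 280 and 227 to 316 FPKM, with none called of 10 (0 higher and 2 lower at an unadjusted p under 0.05). Of white adipocyte genes 4 of 9 were lower, and of 8 erythroid genes 1 was tested, *Alas2*, and was higher. These limma p-values and calls set the difference between genotypes against the spread between 3 mice of each genotype, moderated over all tested loci.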

How the data were processed

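Total RNA of iWAT from 3 TG and 3 WT mice was sequenced by the authors as TruSeq libraries with single-end reads of 100 bases, mapped to mm10 with TopHat and quantified with Cufflinks. The submitters' processing notes name CASAVA 1.8.2, TopHat2 2.0.9, Bowtie2 2.1.0 and Cufflinks 2.2.1. The annotation and options were not given in the sources used here. The authors deposited FPKM for each locus and mouse. Samples were grouped by the genotype of their labels. Replicate numbers mark different mice.

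From the deposited FPKM, log2(FPKM + 1) was computed and tested with limma 3.58.1 in R 4.3.3 (eBayes with trend, two-sided, Benjamini-Hochberg adjustment) over the 11692 loci that exceed a mean of 1 FPKM in a genotype. No count test was run. Calls are at an adjusted p under 0.05. Marker sums were compared by an exact permutation test over 20 arrangements. The procedure was checked on simulated data. Listed starts count from 0, and 1 was added. Gene positions are from GENCODE and promoters from RefSeq. Protein sequences were not used here, and the planned protein identities were not computed. Figures used Python 3.11.15 with matplotlib 3.10.9.

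The members, gene lists and tests were chosen with earlier results of these data known. Named are all members, the other S100 genes, up to 4 called genes per list and direction with the largest change, genes whose role ties them to a member, the 5 loci nearest to *S100b*, and loci within 50 kb of it or overlapping a member. Further list genes were named after their values were seen. Values of some list genes are not reported here. The settings varied were the pseudocount (0.1), the filter (none, or on the mean over both genotypes), the scaling (quantile or median-ratio), the trend in eBayes, sample weights, a replicate block, the threshold (0.01) and the omission of any 1 mouse. Leaving out replicate 2 of both genotypes, the mice with the most muscle RNA, was added after seeing the data, as were the Schwann cell sum without *Scn7a* and the neutrophil sum without *Lcn2*.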

Additional observations from a re-analysis of the deposited data

How the results depend on the processing

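Over the 14 alternatives to the reported setting the log2 difference was 3.56 to 4.26 for *S100b*, 0.47 to 0.83 for *S100a1* and -0.62 to -0.34 for *S100a4*. Counts of members past the threshold are no test, since the members were chosen on these values. Members past it and higher (2 as reported) numbered 1 without a filter, 1 after quantile normalization, 1 at an adjusted p under 0.01 and 1 to 2 with a mouse left out. Members past it and lower (0 as reported) numbered 2 after quantile normalization, 1 with median-ratio scaling, 1 with sample weights and 0 to 1 with a mouse left out. The members' median log2 difference was 0.0175 after quantile normalization. *S100a10* reversed to -0.363 after quantile normalization and -0.0617 with sample weights, *S100a11* to -0.0494 after quantile normalization, *Anxa2* to -0.292 and -0.0491 under those same settings, and *Sox10* to 0.0642 with sample weights. With a mouse left out, *S100a10* ranged from -0.0396 to 0.0923, *S100a16* from -0.0730 to 0.0412, *Tlr4* from -0.0857 to 0.0348, *Anxa2* from -0.0800 to 0.159 and *Sox10* from -0.645 to 0.0937. Without a filter, which brings more loci into the adjustment, 748 loci were higher and 381 lower, partners numbered 2 higher and 1 lower, EF-hand genes 0 higher, and innervation genes 1 higher and 0 lower. After quantile normalization EF-hand genes numbered 0 higher and 3 lower, and with sample weights 2 lower. With a mouse left out, loci numbered 779 to 1277 higher and 327 to 885 lower, partners 4 to 6 higher and 1 lower, EF-hand genes 0 higher and 1 to 2 lower, and innervation genes 1 to 3 higher and 0 to 1 lower. Without replicate 2 of both genotypes, chosen after seeing the data, 666 loci were higher and 384 lower, 1 member was higher, 2 receptor genes were lower, partners numbered 4 higher and 1 lower, EF-hand genes 0 and 0, and innervation genes 1 and 0. The cause of these shifts was not tested, apart from the fewer samples or more loci that a setting has by its construction. Taking another row for a member could give no other value, since no member is on several rows.

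With the replicate number as a block, 4 members were higher (*S100a8* and *S100a9* were added) and 0 lower, partners numbered 5 higher and 1 lower, EF-hand genes 2 higher and 1 lower, innervation genes 2 higher and 1 lower, and all loci 1230 higher and 656 lower. The numbers share no animal, and deviations of same-numbered mice correlated at 0.0129, 0.0344 and 0.0701, so the block is not a pairing of the design. No mouse correlated best with the mouse of its own number in the other genotype. Depth is known only as a ratio between libraries, which limits what values near 0 FPKM can show.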
